A study of Mus musculus with 12 samples.

Results

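The Bcl2 family decides at the outer membrane of the mitochondrion whether a cell undergoes apoptosis, and 10 of its genes were followed in mouse spleen. They were chosen by symbol from the 18221 genes in the deposited tables, by a rule that uses no measured value, although earlier results of these data were known when it was set. The anti-apoptotic genes were Bcl2, Bcl2l1, Bcl2l2, Mcl1 and Bcl2a1b, the pore-forming gene was Bak1, and the BH3-only genes were Bcl2l11, Bid, Bad and Bmf. Anti-apoptotic proteins hold the pore-forming proteins in check, and BH3-only proteins respond to stress by binding and blocking the anti-apoptotic ones or by activating the pore formers. Once pores open, cytochrome c leaves the mitochondrion, binds Apaf1 and starts the caspases. In the spleen this balance limits the life of lymphocytes and neutrophils, and Bcl-xL, the long product of Bcl2l1, is known to keep late erythroid precursors alive.

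RNA of whole spleens was sequenced from 4 groups of 3 male ICR mice, an outbred stock, which entered the study at 3 weeks and were sampled at 8 weeks of age. Con-sa mice received saline and no busulfan, an alkylating drug that depletes blood-forming cells. B-sa mice received 1 dose of busulfan at 40 mg/kg and then saline. After the same dose of busulfan, B+Con-FMT mice were given gut microbiota daily by mouth for 2 weeks from control donors, and B+A10-FMT mice were given it from donors that had themselves been dosed with alginate oligosaccharides at 10 mg/kg. The transferred material was pooled from the small intestine of several donors, so the 3 recipients of a group share their source. The mice carried no engineered allele, and because whole spleen was measured, fewer cells of a type and less RNA per cell cannot be told apart in any result that follows.

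Values are RPKM, reads scaled to the length of the transcript and to all mapped reads, summed over the transcripts of a gene, so levels of different genes are per length and can be set side by side. The tests were made by limma on log2(RPKM + 1) in a single fit of the 12 mice. It covered the 12671 genes that reached an RPKM of 1 in 3 mice or more, and all 10 family genes were among them. A gene was called when its adjusted p (Benjamini-Hochberg, over the genes tested) was under 0.05. Depth is not in the tables. From the steps between low RPKM values it was estimated at 14700000 to 15400000 reads per mouse, and this is rough, since 52.3 to 61.9% of the values tried were whole numbers of reads to within 0.005 RPKM. Globin genes took 23.3 to 32.4% of the summed RPKM of a mouse. No 2 libraries were identical. The spleen label fitted the B cell markers (6 genes, summed RPKM 1387 to 2002 in every mouse), but libraries stood apart in genes of tissues from outside the spleen and in globin type. The summed RPKM of 6 pancreatic acinar genes was 3947 to 5953 in the B+Con-FMT mice, 235 to 1568 in the B-sa mice, and it ranged from 242 to 4757 within B+A10-FMT and from 626 to 3290 within Con-sa. The sum of 4 kidney genes, of which 1 passed the filter, separated all groups, at 73.4 to 113 RPKM in Con-sa mice, 7.26 to 14.4 in B-sa mice, 17.0 to 60.4 with Con-FMT and 0.58 to 2.98 with A10-FMT. Nearly all of the kidney sum was Kap (93.9 RPKM on average in Con-sa). The other kidney genes, Umod, Slc12a1 and Aqp2, were at most 1 RPKM in any mouse. The sum of 4 adipocyte genes was 14.3 to 38.0 RPKM in the mice without a transfer and 4.75 to 14.9 in those with one. The part of these tissues in the differences that follow was not tested. The adult globin gene Hbb-bs was 9.20 to 30.5 RPKM in the 3 B-sa mice and 36.4 in B+Con-FMT mouse 1, against at least 4025 in the other mice.

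From 0.41 to 14.5% of all genes tested were called in a comparison, and the comparisons share mice. Of the 10 genes, those called were Bmf, in 3 of the 6 comparisons, and Bcl2l1, in 1. Their RefSeq promoter stretches on GRCm38.p6, 250 bases up to the start, are shown because these 2 genes were called. Capitals mark the CCAAT box, searched on both strands. The Bmf stretch is chr2:118549687-118549936, minus strand, just upstream of the outermost RefSeq start of the gene at 118549686, with 1 base inside a GENCODE M21 exon, and the Bcl2l1 stretch is chr2:152831729-152831978, minus strand, the most upstream of the 3 stretches the RefSeq table gives for that gene. It ends at the base before an exon of 1 GENCODE M21 transcript begins, and lies inside the longer span of the gene given below. Whether that exon is the first of its transcript was not checked. The stretch was not matched to the start of XM_011239260.2, the Bcl2l1 transcript that carried most of the RNA. The other 2 Bcl2l1 stretches lie wholly in annotated exons (250 of 250 bases) and are not printed. RefSeq gives 2 further Bmf stretches, before inner starts at 118547599 and 118544587, which are not printed either.

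Bmf: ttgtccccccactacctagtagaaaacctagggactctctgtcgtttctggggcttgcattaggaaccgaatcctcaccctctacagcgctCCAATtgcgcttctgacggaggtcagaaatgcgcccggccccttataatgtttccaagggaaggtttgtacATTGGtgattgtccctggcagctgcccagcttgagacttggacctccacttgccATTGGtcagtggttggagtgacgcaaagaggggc
Bcl2l1: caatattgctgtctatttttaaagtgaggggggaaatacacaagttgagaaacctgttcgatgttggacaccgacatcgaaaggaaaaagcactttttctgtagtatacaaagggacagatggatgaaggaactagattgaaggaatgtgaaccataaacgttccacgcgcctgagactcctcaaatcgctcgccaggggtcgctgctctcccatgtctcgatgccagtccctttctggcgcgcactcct

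The printed Bmf stretch held 3 CCAAT boxes, at -159, -88 and -34 from the start, and the other 2 Bmf stretches held 1 and 0. None of the Bcl2l1 stretches held one. At least 1 CCAAT box was present in 33.8% of 32851 mouse promoters of this length, and at least 3 in 2.79%. Neither printed stretch held the GATA motif AGATAA, present in 9.99% of promoters, on either strand, but the Bcl2l1 stretch before base 152828489 held 1, at -41. The STAT motif TTCNNNGAA, in 7.02% of promoters, the FOXO motif GTAAACA, in 3.17%, and the GC box GGGCGG, in 32.7%, were in none of the stretches of the 2 genes. A match is a run of letters, and binding was not measured.

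Of the 10 genes, Mcl1 had the largest share of RNA in the spleen. It encodes a short-lived guard that lymphocytes, neutrophils and blood stem cells depend on. Mcl1 averaged 181 RPKM over the 12 mice and made up 41.7 to 47.0% of the summed RPKM of the 10 genes in each mouse. A further 15 genes of the family are outside this sum and came to 315 to 343 RPKM per mouse. Among them were Bnip3l (139 RPKM on average) and Bax (69.5). Within the 10, Bcl2l1 (54.4), Bak1 (46.6), Bcl2a1b (38.1) and Bid (29.3) followed, in RPKM. Bcl2l11 (14.9), Bcl2 (14.8), Bad (12.5), Bcl2l2 (6.36) and Bmf (4.58) were lowest. Of neighbours in this order, the mouse ranges of Mcl1 and Bcl2l1 did not overlap, whereas those of Bcl2l1 and Bak1, Bak1 and Bcl2a1b, Bcl2l11 and Bcl2, Bcl2 and Bad, and Bcl2l2 and Bmf did. The total over the 10 genes was 385 RPKM in the lowest mouse (B-sa mouse 2) and 427 in the highest (Con-sa mouse 2). The 5 anti-apoptotic genes together were 2.83 ± 0.021 times the 5 pro-apoptotic ones in Con-sa (SD, n = 3), 2.73 ± 0.13 in B-sa, 2.66 ± 0.21 in B+A10-FMT and 2.72 ± 0.34 in B+Con-FMT. The spread of this ratio was wider in each treated group than in Con-sa, and B-sa and B+Con-FMT mice overlapped with the Con-sa mice. The highest B+A10-FMT mouse (2.8161) lay just under the lowest Con-sa mouse (2.8166). This ratio depends on which genes were listed and is not the balance of the whole family. It leaves out pro-apoptotic genes such as Bax, Bok, Bbc3 and Pmaip1, and the guards Bcl2a1a and Bcl2a1d. Bax alone averaged more than Bak1 (69.5 against 46.6 RPKM), and it was called between some of the groups, as given below.

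**Figure D1:**
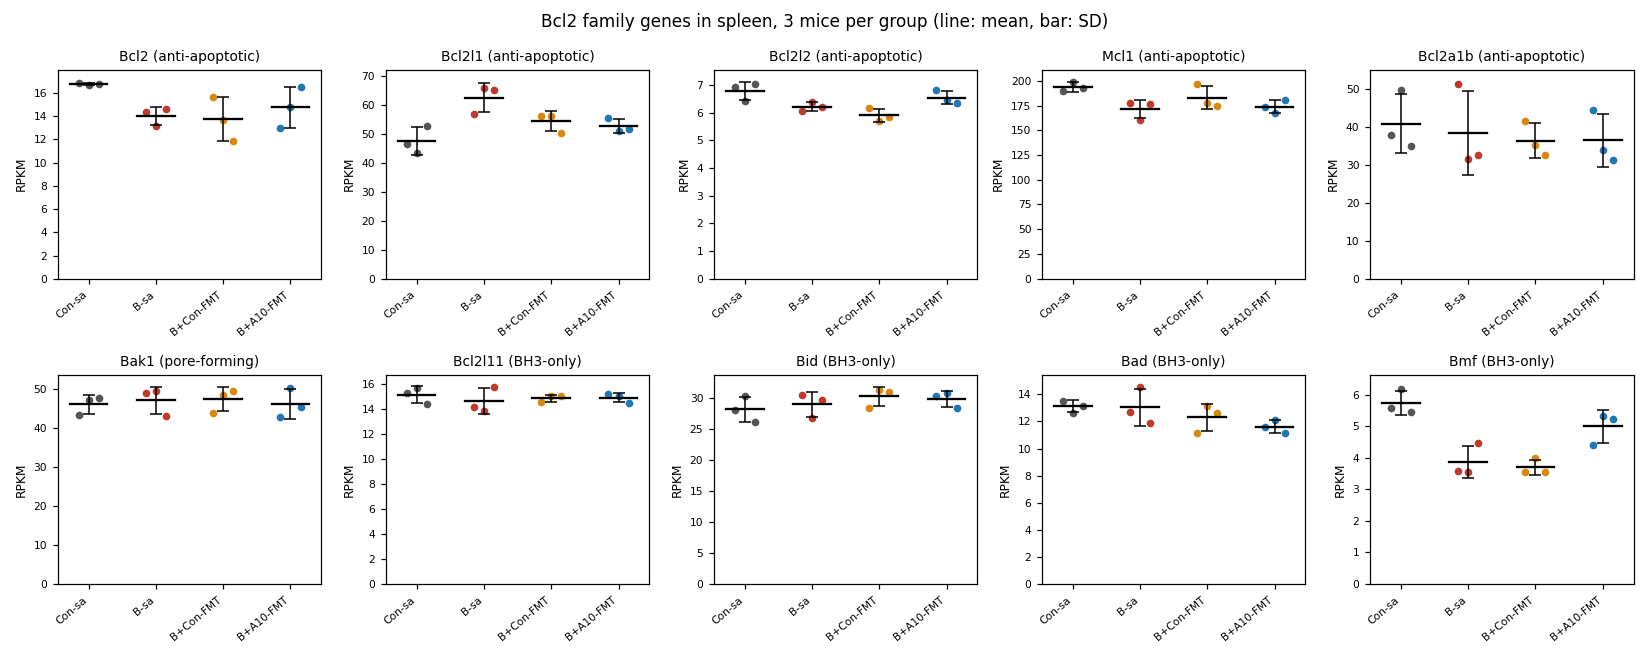
RPKM of the 10 Bcl2 family genes (y axis, from 0) in the 4 groups (x axis); each point is 1 mouse, the line the mean and the bar the SD of 3 mice. Bcl2l1 was highest in B-sa (56.8 to 65.9 RPKM), and Bmf was lowest in B-sa and B+Con-FMT (3.55 to 4.47 RPKM), while Bak1, Bid and Bcl2l11 lay at like levels in all groups.

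The comparison of B-sa with Con-sa asks what busulfan left in the spleen. In B-sa, Bcl2l1 rose and Bmf fell, and the other 8 genes were not called, so 2 of 10 were called where 14.5% of all genes tested were. The mice of the 2 groups did not overlap in 5 of the 10 genes (Bcl2l1 higher; Bcl2, Bcl2l2, Mcl1 and Bmf lower), and 34% of all genes did not overlap. The median log2 difference of the 10 genes was -0.078, beside -0.044 over all genes tested.

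Bcl2l1 encodes Bcl-xL, which binds Bax and Bak1 and keeps pores from forming. It was 46.6, 43.4 and 53.0 RPKM in the 3 Con-sa mice and 56.8, 65.9 and 65.1 RPKM in the 3 B-sa mice. Every B-sa mouse was above every Con-sa mouse. The log2 difference was 0.39 (SE 0.079, a 1.31-fold rise, limma adjusted p = 0.0104). It was called in all 9 alternative settings and in 5 of 6 fits that left out 1 mouse, the exception being the fit without B-sa mouse 2 (log2 difference 0.35, adjusted p = 0.0501). The gene lies on chromosome 2 (152758732 to 152833803 on GRCm38) and has 8 transcripts in the tables. The rise lay in the predicted transcript XM_011239260.2, which made up 64.0% of the gene's mean RPKM. This transcript was 23.6, 23.5 and 34.0 RPKM in Con-sa and 37.7, 45.3 and 43.9 in B-sa mice, without overlap. The next transcripts, NM_001289716.1 (9.47 to 14.5 RPKM in Con-sa, 7.69 to 13.6 in B-sa) and NM_009743.5 (2.46 to 5.88 and 2.96 to 4.97), overlapped. Assigning reads among transcripts that share exons is uncertain, and of single transcripts the leading one of each gene was tested.

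**Figure D2:**
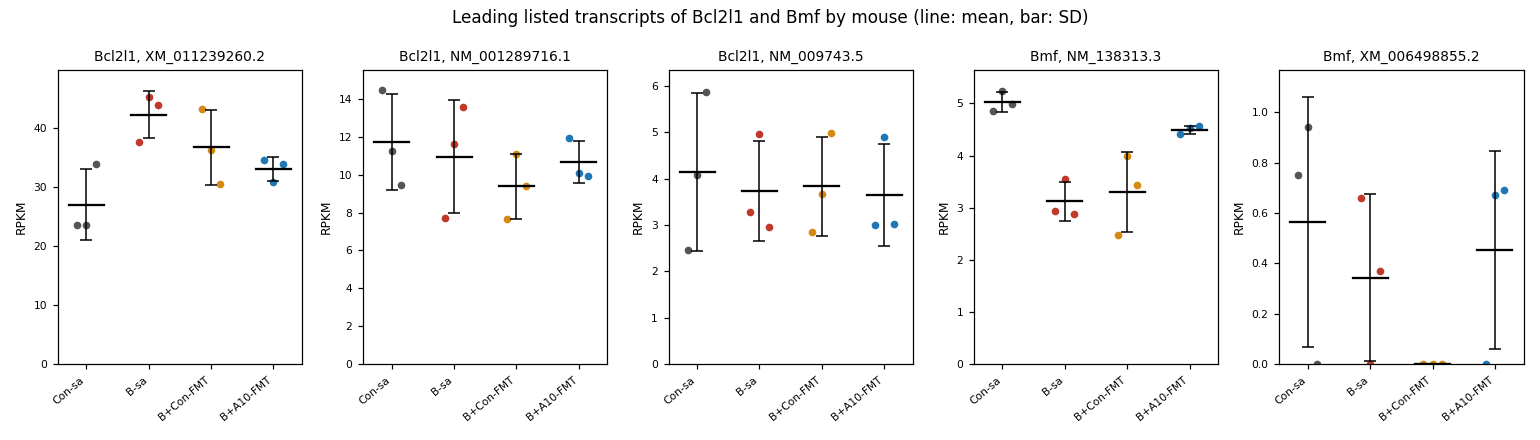
RPKM (y axis, from 0) of the 3 leading transcripts of Bcl2l1 and the 2 leading transcripts of Bmf in the 4 groups (x axis); each point is 1 mouse, the line the mean and the bar the SD of 3 mice. XM_011239260.2 of Bcl2l1 was higher in all B-sa than in all Con-sa mice, and NM_138313.3 of Bmf was lower in all B-sa mice (2.88 to 3.55 RPKM) than in all Con-sa mice (4.85 to 5.24).

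Some genes of red cell precursors were also higher in B-sa. Among the erythroid markers, Epor, Klf1 and Hba-a1 rose in B-sa and Hbb-bs fell, whereas Alas2 was not called. The receptor gene Epor differed by 0.40 (adjusted p = 0.0294) and the erythroid factor gene Klf1 by 0.33 (adjusted p = 0.0392). The sum of the 4 erythroid markers that are not globins was 1133 to 1205 RPKM in Con-sa mice, 1213 to 1548 in B-sa mice, 1192 to 1338 in B+A10-FMT and 1202 to 1242 in B+Con-FMT. Megakaryocyte markers (4 genes) summed to 776 to 831 RPKM in Con-sa and 968 to 1185 in B-sa, with 1 of 4 called higher. The part of these cells in the Bcl2l1 difference was not tested.

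Bmf encodes a BH3-only protein that is held on the cytoskeleton by dynein light chain 2 and, when freed, blocks Bcl2 and its relatives. It was 5.60, 6.18 and 5.45 RPKM in Con-sa and 3.6, 3.55 and 4.47 in B-sa mice. All B-sa mice were below all Con-sa mice, by a log2 difference of -0.47 (SE 0.093, 0.721-fold, limma adjusted p = 0.00939). The call stood in all 9 settings and all 6 fits without 1 mouse (adjusted p up to 0.0460). The fold is on log2(RPKM + 1) and understates the change of so low a gene. The gene lies on chromosome 2 (118528757 to 118549686), and the RefSeq transcript NM_138313.3 made up 87.0% of its RPKM.

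The guards Bcl2, Mcl1 and Bcl2l2 (Bcl-w) lay lower in every B-sa than in every Con-sa mouse, and none of the 3 was called. Bcl2, which lymphocytes use for their survival, was 16.9, 16.7 and 16.8 RPKM in Con-sa and 14.4, 13.1 and 14.6 in B-sa (log2 difference -0.24, 95% interval -0.45 to -0.041, limma adjusted p = 0.0966). Mcl1 was 189, 199 and 193 RPKM in Con-sa and 177, 161 and 176 in B-sa (log2 difference -0.18, 95% interval -0.30 to -0.051, adjusted p = 0.0592). Bcl2 passed the threshold in 1 of the 9 settings (only the 2 groups compared, adjusted p = 0.0495) and Mcl1 in 1 of 6 fits without 1 mouse (B-sa mouse 1, adjusted p = 0.0490). Bcl2l2 was 6.41 to 7.04 RPKM in Con-sa and 6.06 to 6.38 in B-sa (log2 difference -0.11, adjusted p = 0.255).

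B cell markers were lower in B-sa as well: 4 of 6 were called lower, among them Cd79a and Cd79b of the B cell receptor, and their sum was 1807 to 2002 RPKM in Con-sa and 1387 to 1663 in B-sa. All 4 natural killer cell markers were called lower, with sums of 68.1 to 77.4 RPKM in Con-sa and 22.8 to 24.4 in B-sa. The 4 endothelial markers summed to 73.3 to 75.0 and 60.3 to 66.9 RPKM, with 1 of 4 called lower. The 8 neutrophil genes summed to 1991 to 2068 and 3539 to 5795, with 1 of 8 called higher. The part of these cells in the values of Bmf, Bcl2, Mcl1 and Bcl2l2 was not tested.

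The comparisons of both FMT groups with B-sa ask what the transfers changed after busulfan, and they share the B-sa mice. Between B+Con-FMT and B-sa mice, 0 of the 10 genes were called by limma, where 0.844% of all genes were, and 1 had an unadjusted p under 0.05, as did 2329 of the 12671 genes tested. That gene was Bcl2l1, at 56.4, 56.4 and 50.5 RPKM in B+Con-FMT (log2 difference -0.20, 95% interval -0.37 to -0.026, limma adjusted p = 0.221), and it was also the only one of the 10 without overlap, as were 19.5% of all genes. Between B+A10-FMT and B-sa mice, 0 of the 10 were called by limma, where 5.27% of all genes were, and 2 had an unadjusted p under 0.05 (3101 of all genes). The median log2 difference of the 10 genes was -0.040 and 0.026 in the 2 comparisons, beside -0.0041 and 0.046 over all genes.

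Those 2 genes were Bcl2l1 and Bmf. Bcl2l1 was 55.7, 51.2 and 51.9 RPKM in B+A10-FMT, all 3 below the B-sa mice and the 1 gene of the 10 without overlap (27% of all genes), with a log2 difference of -0.24 (95% interval -0.41 to -0.065, limma adjusted p = 0.0953). Bmf was 4.41, 5.34 and 5.25 RPKM in B+A10-FMT, and its lowest mouse lay below the highest B-sa mouse (4.47). The log2 difference was 0.30 (95% interval 0.10 to 0.50, adjusted p = 0.0742). Neither passed the threshold with all mice. With 1 mouse left out, Bcl2l1 passed it in 1 of 6 fits (without B-sa mouse 1, adjusted p = 0.0446), and Bmf in 1 of 6 (without B-sa mouse 3, adjusted p = 0.0429). Globin sums were 157909 to 193405 RPKM in B+A10-FMT and 206117 to 250280 in B-sa (of 9 tested, 2 called higher and 1 lower). Endothelial sums were 74.0 to 77.7 and 60.3 to 66.9 (2 of 4 called higher). B cell sums and those of the non-globin erythroid markers overlapped. The part of these cells in the Bcl2l1 and Bmf values was not tested.

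The comparison of the FMT groups with each other asks whether dosing the donors with alginate oligosaccharides made a difference. Bmf was the 1 gene of 10 called, where 10.4% of all genes were, and it was higher in B+A10-FMT. It was 3.56, 3.99 and 3.56 RPKM in B+Con-FMT, below all 3 B+A10-FMT mice, with a log2 difference of 0.35 (SE 0.093, 1.27-fold, limma adjusted p = 0.0356). This call was not steady. It was lost in 4 of 9 settings (no filter, only the 2 groups compared, median-of-ratios scaling and the leading transcript alone, adjusted p 0.0501 to 0.126) and in 5 of 6 fits without 1 mouse (0.0577 to 0.137), the exception being the fit without B+A10-FMT mouse 1 (0.0279). Bcl2l2 was the other gene without overlap, at 6.81, 6.47 and 6.35 RPKM in B+A10-FMT and 6.17, 5.71 and 5.85 in B+Con-FMT (log2 difference 0.13, 95% interval -0.0090 to 0.26, adjusted p = 0.200), where 35% of all genes did not overlap. The median log2 difference was -0.012 over the 10 genes and 0.046 over all genes.

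Beside this, all 4 endothelial markers were called higher in the recipients of A10-FMT than in those of Con-FMT (sums 74.0 to 77.7 against 58.3 to 64.9 RPKM), 3 of 8 monocyte and macrophage markers were called higher, T cell sums did not overlap (6 genes, 263 to 301 RPKM against 305 to 383, with 0 of 6 called and 3 at an unadjusted p under 0.05), and B cell sums were 1619 to 1684 and 1617 to 1693 RPKM. The acinar sums given above were lower in 2 of the 3 B+A10-FMT mice than in every B+Con-FMT mouse. The part of these cells and tissues in the Bmf difference, and in the differences of Fas and Bax given below, was not tested.

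The last comparisons set both FMT groups against Con-sa and share the Con-sa mice. In B+Con-FMT versus Con-sa, 1 of the 10 genes was called, where 8.87% of all genes were. Bmf was lower in B+Con-FMT by 0.52 on the log2 scale (log2 difference -0.52, SE 0.093, 0.698-fold, limma adjusted p = 0.00787), with no overlap, and the call was lost with the leading transcript alone (adjusted p = 0.0690). Bcl2 was 15.7, 13.7 and 11.9 RPKM in B+Con-FMT, below all Con-sa mice and not called (log2 difference -0.28, 95% interval -0.48 to -0.074, adjusted p = 0.0809), and Bcl2l2 stood likewise (log2 difference -0.17, 95% interval -0.31 to -0.036). With equal totals outside globin genes, Bcl2 and Bcl2l2 were called too (adjusted p = 0.0373 and 0.0459). These were the 3 genes without overlap, against 34.2% of all genes. Bcl2l1 overlapped with the Con-sa mice in both FMT groups and was called in neither, with a log2 difference of 0.19 for B+Con-FMT mice (95% interval 0.020 to 0.36, adjusted p = 0.140) and 0.15 for B+A10-FMT mice (95% interval -0.019 to 0.32, adjusted p = 0.420).

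Marker sums of several cell types also stood apart between B+Con-FMT and Con-sa mice. Natural killer cell sums were 18.5 to 28.2 RPKM against 68.1 to 77.4 (3 of 4 markers called lower), endothelial sums 58.3 to 64.9 against 73.3 to 75.0 (4 of 4 lower) and B cell sums 1617 to 1693 against 1807 to 2002 (1 of 6 lower). T cell sums were higher, at 305 to 383 against 242 to 283 RPKM (3 of 6 called higher). Neutrophil sums were also higher, at 2308 to 3318 against 1991 to 2068 RPKM (0 of 8 called). The part of these cells in the Bmf, Bcl2 and Bcl2l2 values was not tested.

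In B+A10-FMT versus Con-sa, 0 of the 10 genes were called by limma, where 0.41% of all genes were, and 1 had an unadjusted p under 0.05 (1710 of all genes).

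That gene was Mcl1, at 174, 168 and 181 RPKM in B+A10-FMT, below all Con-sa mice (log2 difference -0.16, 95% interval -0.28 to -0.029, limma adjusted p = 0.286). Bcl2 (13, 14.8 and 16.5 RPKM), Bad (11.6, 12.1 and 11.1 RPKM) and Bmf were the others whose B+A10-FMT mice all lay below the Con-sa mice, 4 of 10 where 21.6% of all genes did not overlap. For Bmf the log2 difference was -0.17 (95% interval -0.37 to 0.031, adjusted p = 0.435). B cell sums were 1619 to 1684 RPKM in B+A10-FMT and 1807 to 2002 in Con-sa (0 of 6 called). Natural killer cell sums were 23.2 to 40.4 and 68.1 to 77.4 (1 of 4 called lower), and T cell and endothelial sums overlapped. The part of these cells in the values of Mcl1, Bcl2, Bad and Bmf was not tested. The median log2 difference of the 10 genes versus Con-sa was -0.087 for B+Con-FMT mice and -0.10 for B+A10-FMT mice, beside -0.041 and 0.0050 over all genes.

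**Figure D3:**
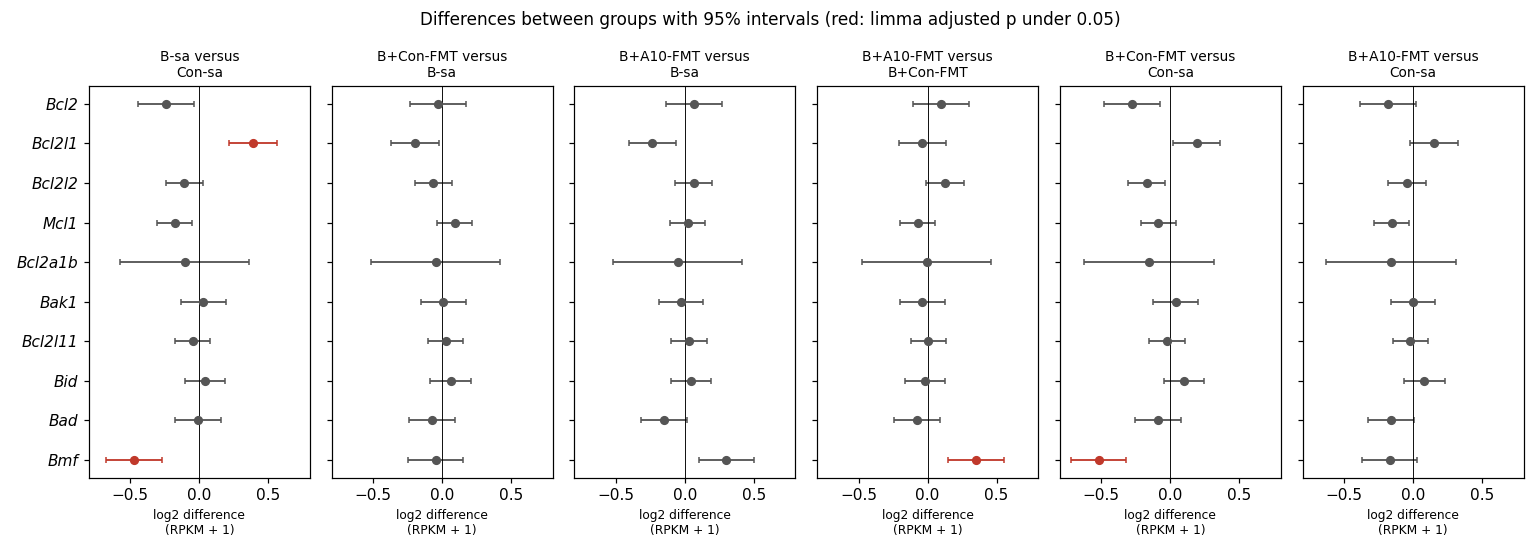
Log2 difference of RPKM + 1 (x axis) of each of the 10 genes (y axis) in the 6 comparisons, 1 panel each; points are limma estimates, bars 95% intervals, and red marks an adjusted p under 0.05. The 4 red points are Bcl2l1 (0.39) and Bmf (-0.47) in B-sa versus Con-sa, Bmf (-0.52) in B+Con-FMT versus Con-sa and Bmf (0.35) between the FMT groups.

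The other 5 genes were called in none of the 6 comparisons. Bak1, which forms the pore in the mitochondrial membrane, was 42.7 to 50.3 RPKM over the 12 mice, with log2 differences from -0.039 to 0.039. The 95% intervals of Bak1 over the 6 comparisons ran from -0.20 to 0.20 at their widest. Bcl2l11 encodes Bim, the BH3-only protein that removes self-reactive and spent lymphocytes.

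Bcl2l11 was 13.8 to 15.8 RPKM, and its intervals reached from -0.18 to 0.16 around log2 differences of -0.049 to 0.030. Of its 9 transcripts, NM_207680.2 and NM_207681.2 made up 49.0% and 28.4% of the mean RPKM. NM_207680.2 alone was 7.18, 8.05 and 7.91 RPKM in Con-sa and 6.94, 4.18 and 6.11 in B-sa, without overlap. Its log2 difference was -0.39 there (limma adjusted p = 0.175), 0.42 between B+Con-FMT and B-sa mice (adjusted p = 0.291) and 0.39 between B+A10-FMT and B-sa mice (adjusted p = 0.235), so it moved by more than the sum of the gene's transcripts and was not called. Bid, which caspase-8 cleaves to carry death receptor signals to the mitochondrion, was 26.2 to 31.3 RPKM with log2 differences of -0.018 to 0.10. Bad, which growth factor signals keep phosphorylated and bound to 14-3-3 proteins, was 11.1 to 14.5 RPKM with log2 differences of -0.16 to -0.011 (lowest adjusted p = 0.250). These intervals are for the summed RPKM of a gene, not for its single transcripts, and they do not show that the levels were equal.

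Bcl2a1b encodes an A1 protein, a guard of activated lymphocytes and neutrophils. Within groups it had the widest spread of the 10 on the log2 scale (SE 0.21). It was 37.9, 49.8 and 35.1 RPKM in Con-sa, 51.3, 31.5 and 32.6 in B-sa, 41.5, 35.3 and 32.5 in B+Con-FMT and 44.4, 33.9 and 31.3 in B+A10-FMT. In each group 1 mouse stood above the other two, and the groups overlapped throughout (95% intervals from -0.63 to 0.46 over the 6 comparisons). Its value is uncertain, because the mouse has near-identical copies of the gene: over the aligned coding bases, Bcl2a1b matched Bcl2a1d at 98.84%, Bcl2a1a at 97.87% and Bcl2a1c at 95.82%, and reads can be split among them. Bcl2a1b took 35.9 to 48.9% of the sum of the 4 copies, which was 78.1 to 112 RPKM. None of the other 3 copies was called in any comparison.

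By Pearson's r of log2(RPKM + 1) over the 12 mice, the genes most like Bmf were Wasf2 (0.959), Akap13 (0.959) and Hdac5 (0.958). For Mcl1 they were Ttpal (0.949), Gm8909 (0.934) and Tmem184c (0.926), and for Bak1 Mfsd13a (0.927) and Rnps1 (0.877). All of these are in the top 3 of 12671 genes for their member, and mice of a group share their treatment, so the values are a description only.

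Of 60 further genes of the cell death pathway in 6 lists, 58 were tested, and 16 were called in at least 1 comparison. In B-sa versus Con-sa, 3 were called higher and 5 lower, which is 8 of 58 beside 14.5% of all genes, a share near the background. The 3 that rose encode proteins of the mitochondrion: Cycs (cytochrome c, log2 difference 0.23) and the outer membrane channels Vdac1 (0.20) and Vdac3 (0.17), of 9 genes in that list. The 5 that fell were the Bcl2 relative Bok (-0.40, 1 of 14 tested), the inhibitors of apoptosis Birc6 (-0.26) and Naip5 (-0.28, 2 of 6), the death ligand gene Fasl (-0.43, 1 of 9) and Huwe1 (-0.24, 1 of 12 upstream partners), a ubiquitin ligase that acts on Mcl1. All 8 calls were lost in the fit without B-sa mouse 2 (limma adjusted p 0.0722 to 0.160) and in the 2-group fit (0.0612 to 0.0880). With the leading transcript alone, the 3 higher calls were kept and the 5 lower ones lost (adjusted p 0.107 to 0.806). Huwe1 was then at -0.064. With median-of-ratios scaling the 3 higher calls were kept, whereas Birc6, Bok, Fasl and Naip5, 4 of the 5 lower ones, were lost (adjusted p 0.0517 to 0.0762), so the split by direction depends on the scaling. Over all genes it went from 599 higher and 1239 lower to 966 and 736. The list of 8 apoptotic caspases and their nuclease had 0 calls by limma, with 3 genes at an unadjusted p under 0.05.

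Between B+Con-FMT and B-sa mice, 0 of the 58 were called by limma, with 11 at an unadjusted p under 0.05 (2329 of all 12671 genes). With A10-FMT set against B-sa, Cycs was lower (log2 difference -0.23) and Naip5 higher (0.28), beside 5.27% of all genes, and both calls were lost without B-sa mouse 2 (limma adjusted p 0.119 and 0.143). Naip5 belongs to a cluster of near-identical mouse genes, so its reads may be split among them.

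Between the FMT groups, 6 of the 58 were called higher and 3 lower in recipients of A10-FMT, 9 of 58 beside 10.4% of all genes. Apaf1, the adaptor that assembles caspase-9, was 9.50, 10.7 and 9.57 RPKM in B+A10-FMT and 7.04, 6.77 and 8.43 in B+Con-FMT (log2 difference 0.38, limma adjusted p = 0.0204). Bcl2l13 (0.24) and the inhibitors Birc3 (0.27), Naip2 (0.55) and Naip5 (0.32) were among the others that were higher. Fas, the death receptor, was 12.95, 13.56 and 13.85 RPKM in B+A10-FMT and 19.3, 18.5 and 16.5 in B+Con-FMT (log2 difference -0.40, adjusted p = 0.0329). Bax, the second pore former, was lower too. Dynll1, a dynein light chain that binds Bim, was 98.2, 83.9 and 74.7 RPKM in B+A10-FMT and 118, 109 and 117 in B+Con-FMT (log2 difference -0.43, adjusted p = 0.00917), and this was the 1 call of the 24 in these lists that stood in every alternative. Bcl2l13 and Birc3 were also lost with median-of-ratios scaling (adjusted p 0.0703 and 0.0540), under which calls over all genes went from 960 higher and 352 lower to 551 and 695, and Bax with equal totals outside globin genes (0.0565). All 8 calls other than Dynll1 were lost in the fit without B+A10-FMT mouse 2 (adjusted p 0.0801 to 0.123).

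Bax was 64.6, 62.7 and 71.1 RPKM in Con-sa, 70.2, 65.8 and 69.1 in B-sa, 76.7, 77.8 and 77.3 in B+Con-FMT and 68.0, 66.3 and 64.8 in B+A10-FMT. The B+Con-FMT mice lay above all others. Bax was called higher in B+Con-FMT than in Con-sa (log2 difference 0.22, limma adjusted p = 0.0250) and lower with A10-FMT than with Con-FMT (-0.22, adjusted p = 0.0251), but it was not called between B+Con-FMT and B-sa mice (0.17, 95% interval 0.061 to 0.29). Versus Con-sa, where 8.87% of all genes were called, B+Con-FMT was also higher in Fas (0.48) and Dynll1 (0.39) and lower in Fasl (-0.44) and Naip5 (-0.32), and these 5 calls were lost without B+Con-FMT mouse 1 (adjusted p 0.0554 to 0.123). The ratio of Bcl2 to Bax in RPKM was 0.254 ± 0.016 in Con-sa (SD, n = 3), 0.205 ± 0.0058 in B-sa, 0.223 ± 0.032 in B+A10-FMT and 0.178 ± 0.025 in B+Con-FMT, and it was lower in every B-sa and B+Con-FMT mouse than in every Con-sa mouse. In B+A10-FMT versus Con-sa, 0 of the 58 genes were called by limma, with 8 at an unadjusted p under 0.05 (1710 of all genes). The p53 targets Bbc3 (Puma, 3.1 to 4.6 RPKM over the 12 mice) and Pmaip1 (Noxa, 7.81 to 10.95 RPKM) were called in none of the 6 comparisons, with the lowest adjusted p at 0.0524 for Pmaip1, between B+A10-FMT and B-sa mice (log2 difference 0.30).

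**Figure D4:**
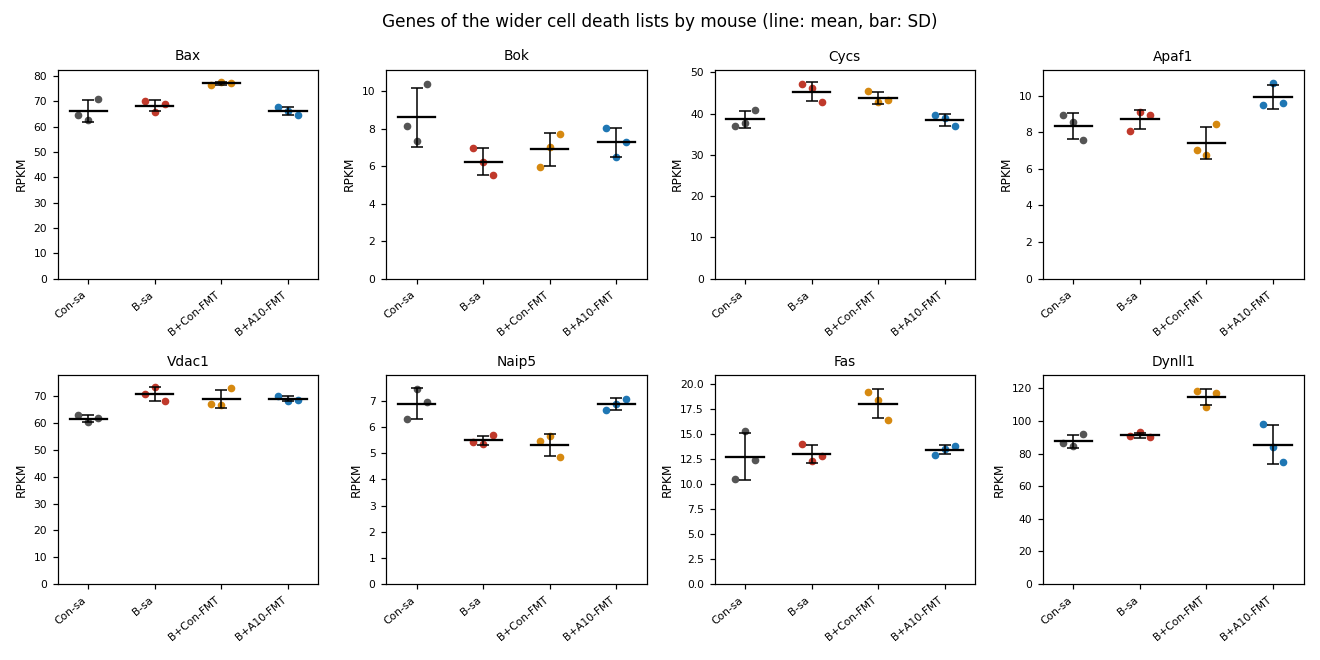
RPKM (y axis, from 0) of 8 genes of the wider cell death lists in the 4 groups (x axis), each called in at least 1 comparison; points are mice, the line the mean and the bar the SD of 3 mice. Bax, Fas and Dynll1 were highest in the 3 B+Con-FMT mice, and Naip5 was lower in B+Con-FMT and B-sa mice (4.86 to 5.68 RPKM) than in Con-sa and B+A10-FMT (6.29 to 7.45).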

How the data were processed

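Spleen RNA of 12 mice was sequenced, 3 per group, with groups taken from the sample labels. The authors enriched polyadenylated RNA, mapped the reads and deposited RPKM for 60654 transcripts in each mouse. The paper names SOAPaligner, whereas the submitters' processing notes list HISAT, Bowtie2 and mm10, and the annotation release is not given in the sources used here. The RPKM were summed per gene (18221 genes). Without counts, the count-based test of the paper could not be used, and log2(RPKM + 1) of the 12671 genes that reached an RPKM of 1 in 3 mice or more was fitted with limma 3.58.1 in R 4.3.3 (trend and robust settings, 12 mice, group only). The fit was tested on simulated data. Adjusted p-values are two-sided and cover the genes tested. They set a group difference against the spread between these mice, and they do not cover differences between donor pools. An exact permutation test of 3 against 3 mice cannot go below p = 0.1 and was not used. Intervals are 95%. The 10 members and the gene lists were chosen with earlier results of these data known. Named beside the members were the list genes called in at least 1 comparison (up to 4 a list, by largest change) and the 3 genes of highest Pearson's r with Mcl1, Bak1 and Bmf, the most abundant anti- and pro-apoptotic members and the most often called one. Some genes that this rule takes are not reported here. Promoters come from RefSeq (all 10 members matched, 16 stretches), gene positions from RefSeq on GRCm38.p6 and coding sequences of the Bcl2a1 copies from GENCODE M21. The alternatives were the replicate number as a block, no filter on RPKM, a filter in every mouse, a pseudocount of 0.1, 2-group fits, median-of-ratios scaling, equal totals outside globin genes, the leading transcript and each mouse left out, with equal totals outside globin and acinar genes and the sum of the 4 Bcl2a1 copies added after seeing the data. Python 3.11.15 with NumPy 2.4.6, pandas 2.3.3 and matplotlib 3.10.9 was used for sums and figures.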

Additional observations from a re-analysis of the deposited data

How the results depend on the processing

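The number of the 10 Bcl2 family genes called was 1 between the FMT groups, where it was 0 with no filter, in the 2-group fit, with median-of-ratios scaling and with the leading transcript. In B+Con-FMT versus Con-sa it was 1, and 3 with equal totals outside globin, 2 with equal totals outside globin and acinar genes and 0 with the leading transcript. With 1 mouse left out, it was 1 to 3 for B-sa versus Con-sa, 0 to 1 for B+A10-FMT versus B-sa and 0 to 1 between the FMT groups. Calls over all genes moved more. For B-sa versus Con-sa they went from 1838 to 1003 (2-group fit) and 547 (leading transcript), for B+Con-FMT versus B-sa from 107 to 71 (no filter), 32 (2-group fit), 180 (outside globin) and 23 (leading transcript), and for B+A10-FMT versus B-sa from 668 to 417 (replicate block), 184 (2-group fit) and 111 (leading transcript). Between the FMT groups they went from 1312 to 2339 (outside globin), 2144 (outside globin and acinar genes) and 315 (leading transcript), for B+Con-FMT versus Con-sa from 1124 to 1836 (outside globin) and 258 (leading transcript), and for B+A10-FMT versus Con-sa from 52 to 29 (filter in every mouse) and 1 (leading transcript). Scaling also moved the direction of calls over all genes, higher and lower. With median-of-ratios scaling they went from 507 and 161 to 287 and 329 for B+A10-FMT versus B-sa, and from 292 and 832 to 632 and 499 for B+Con-FMT versus Con-sa. With equal totals outside globin, the latter were 199 and 1637, those between the FMT groups went from 960 and 352 to 2100 and 239, and those of B+Con-FMT versus B-sa from 79 and 28 to 67 and 113. Outside globin and acinar genes, those of B+A10-FMT versus Con-sa went from 15 and 37 to 23 and 36, and those of B+Con-FMT versus B-sa to 61 and 62. Leaving out 1 mouse, which also lowers the number of samples, gave 513 to 2100, 19 to 466, 106 to 832, 218 to 1160, 329 to 659 and 1 to 49 calls in the same order. Of Bcl2, Bcl2l1, Bcl2l2, Mcl1 and Bmf, the values that turned in sign were small and uncalled: Mcl1 in B+A10-FMT versus B-sa (-0.027 with median-of-ratios scaling, -0.024 to 0.048 with 1 mouse left out), Bcl2l1 between the FMT groups (0.018 outside globin, 0.0090 outside globin and acinar genes), Bmf in B+Con-FMT versus B-sa (0.047 with the leading transcript, -0.094 to 0.039 with 1 mouse left out), and Bcl2 in B+A10-FMT versus B-sa (-0.014 to 0.15) and in B+Con-FMT versus B-sa (-0.12 to 0.060) with 1 mouse left out. Of the 30 values of Bak1, Bcl2l11, Bid, Bad and Bcl2a1b, 19 turned in sign under at least 1 alternative, to at most 0.175 in size (Bcl2a1b), and 0 were called by limma under any. The cause was not tested. Replicate numbers belong to different mice, whose deviations did not pair them, and with the number as a block the 10 genes kept 2, 0, 0, 1, 1 and 0 calls. Counts were not used here, so the precision of low genes such as Bmf rests on 3 mice a group.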
